A study of Mus musculus with 6 samples.

Results

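TRPC and TRPM channels are families of the transient receptor potential (TRP) superfamily of cation channels, and 9 of their genes were followed here: Trpc1, Trpc4, Trpc5, Trpc6 and Trpc7, and Trpm2, Trpm3, Trpm6 and Trpm7. They are 9 of the 24513 genes in each count table, chosen by name with earlier results of the same genotype comparison in view. The values of that comparison, and whether a gene was called in the fit across all genes, are therefore given for these 9 as a description only, with no p-value, and are no independent evidence. RNA-seq was done on total RNA of hypothalamus from C57BL/6 mice between 3 and 4 months of age, 3 wild type (WT) and 3 of the genotype NS-DADm, each mouse giving a library of its own. Background on the line, which the labels do not give, is that the nuclear receptor corepressors NCOR1 and SMRT are mutated in NS-DADm mice, each in the domain that binds and activates the histone deacetylase HDAC3. Sex, zygosity and any treatment are not given in the labels, and no condition other than genotype is named.

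TRPC channels open downstream of receptors that activate phospholipase C, and let sodium and calcium into the cell. In hypothalamus they are known as effectors of leptin and serotonin in feeding neurons. TRPM2 is opened by ADP-ribose and oxidative stress and serves in heat-sensing preoptic neurons, and TRPM3 is opened by the neurosteroid pregnenolone sulfate and by heat. TRPM6 and TRPM7 are a pair of magnesium-conducting channels fused to a protein kinase. TRPM7 is made in nearly all cells, whereas TRPM6 is best known for magnesium uptake in kidney and intestine.

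The libraries held 24.2 M to 27.6 M reads on genes, and none was set aside. Each of 10 hypothalamus-defining genes, among them those for orexin, oxytocin and agouti-related peptide, was detected. Their summed level in CPM (the usual depth-scaled read count, here with TMM factors) was 663 to 722 (WT) and 685 to 807 (NS-DADm). Of the 10, 8 had a log2 fold change above 0 and 2 below, with a median of 0.18. In the fit across all genes 1 of them was called higher, as were 0.0818% of all tested genes. The summed level of 10 anterior pituitary genes was 39.8, 54.8 and 111 CPM across the WT libraries and 202, 2020 and 199 CPM across NS-DADm 1, 2 and 3, so it did not overlap between genotypes, and NS-DADm 2 stood far above the rest. Its part in the channel genes' values was not tested. Markers of thalamus, the region that borders the hypothalamus, had a summed level of 674 to 1080 CPM in the WT libraries, and of 417 to 487 CPM in those of the other genotype.

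TRPM6 and TRPM7 are each other's closest relatives, so how far reads could pass from one gene to the other was looked at first. The best local alignment of their transcripts spanned 835 bases at 70.2% identity, near the 3′ end of the coding sequence, which encodes the kinase, and the longest run of identical coding bases was 23. The stretches below are the 100 coding bases in which the genes were most alike, from GENCODE transcripts of mm10, read 5′ to 3′, with capitals at the 20 bases that differ. Both cross the junction of exons 36 and 37 of the 39 in the transcript, on chromosome 19 (18877721 to 18877772 and 18883900 to 18883947, plus strand) for Trpm6 and on chromosome 2 (126797111 to 126797162 and 126795447 to 126795494, minus strand) for Trpm7.
Trpm6: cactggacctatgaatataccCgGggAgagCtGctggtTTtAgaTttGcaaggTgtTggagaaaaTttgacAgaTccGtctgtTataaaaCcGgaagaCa
Trpm7: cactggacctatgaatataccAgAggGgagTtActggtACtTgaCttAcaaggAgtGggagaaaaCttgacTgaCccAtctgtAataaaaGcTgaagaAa

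The closest pair among the 5 TRPC genes was Trpc4 and Trpc5, whose products can both assemble with TRPC1. Their coding sequences aligned over 2283 bases at 72.9% identity, and their longest identical run was 24 bases. The 100 coding bases most alike, with capitals at the 15 that differ, lie within the seventh exon of each transcript, on chromosome 3 (54299118 to 54299217, plus strand) for Trpc4 and on chromosome X (144411659 to 144411758, minus strand) for Trpc5.
Trpc4: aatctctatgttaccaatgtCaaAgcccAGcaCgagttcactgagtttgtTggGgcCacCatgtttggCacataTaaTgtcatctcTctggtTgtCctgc
Trpc5: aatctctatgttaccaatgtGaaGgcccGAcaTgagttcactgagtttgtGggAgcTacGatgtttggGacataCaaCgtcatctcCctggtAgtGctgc

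Compared per length, as CPM per kb of annotated exon, Trpm7 and Trpc5 were the most abundant of the 9 transcripts in WT hypothalamus and Trpm6 the least. Trpm7 measured 7.21 ± 0.38 and Trpc5 7.18 ± 0.70 CPM per kb (mean ± SD, n = 3), and their WT ranges overlapped. Trpm3 (4.45 ± 0.19) and Trpm2 (4.45 ± 0.72) followed, also with overlapping ranges, and then Trpc7 (3.79 ± 0.77) and Trpc1 (3.27 ± 0.15), each of which overlapped its neighbour in the order. Trpc4 (2.13 ± 0.14), Trpc6 (1.07 ± 0.14) and Trpm6 (0.31 ± 0.058) each lay wholly below the gene above them. Trpm7 was thus 23.3 times as abundant per kb as Trpm6 in WT and 64.1 times in NS-DADm mice. With the longest transcript as the length, Trpm7 stayed first and Trpm6 last, and the WT ratio of Trpm7 to Trpm6 was 31.2. Trpm3 then came ahead of Trpc5, and Trpc7 came below both Trpc1 and Trpc4, so the order between the ends depends on the length used.

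**Figure D1:**
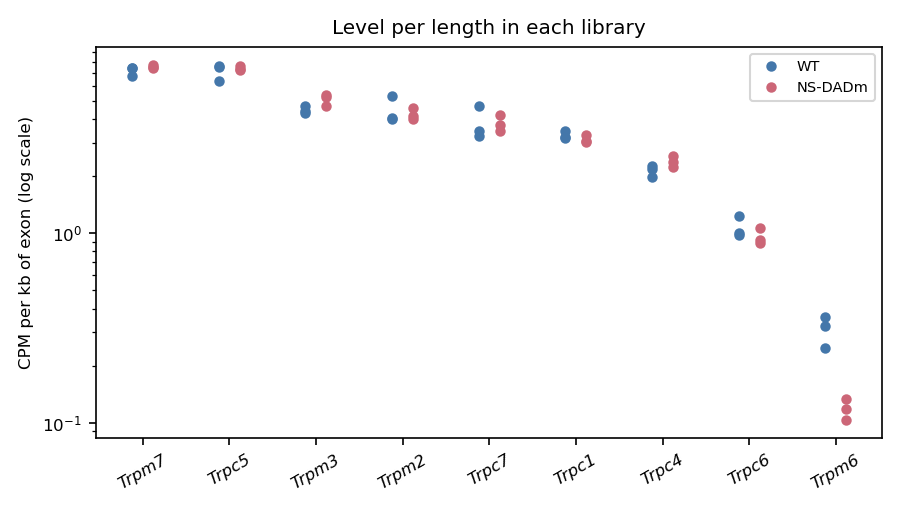
Level of each gene in CPM per kb of exon (log axis) in the 3 WT and 3 NS-DADm libraries, each point a library, ordered by the WT mean. Trpm7 and Trpc5 share the top at about the same WT mean, and Trpm6 is lowest at 0.31 CPM per kb in WT.

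Trpm6 fell in NS-DADm hypothalamus, while Trpm7 did not pass the threshold. Trpm6 (chromosome 19, 18749983 to 18892511, plus strand) stood at 2.78 (WT 1), 1.90 (WT 2) and 2.50 CPM (WT 3), against 1.02 (NS-DADm 1), 0.80 (NS-DADm 2) and 0.91 CPM (NS-DADm 3). The 3 NS-DADm libraries all lay below the lowest WT library, WT 2. The fitted log2 fold change was -1.39 ± 0.21 (SE), a level 2.63-fold higher in WT. These levels rested on 76 (WT 1), 52 (WT 2) and 66 (WT 3) reads, against 25 (NS-DADm 1), 22 (NS-DADm 2) and 24 (NS-DADm 3). The exact Poisson 95% interval was 38.8 to 68.2 reads for WT 2, the lowest WT library, and 16.2 to 36.9 for NS-DADm 1, the highest of the other group. Such intervals cover counting error only. Trpm6 alone of the 9 genes was called by edgeR's quasi-likelihood test at a Benjamini-Hochberg (BH) adjusted p under 0.05 over all genes, a call that 0.654% of the 15894 tested genes received (0.573% lower and 0.0818% higher). Since the genes were chosen with this comparison known, nothing is read from that count. Trpm6 was not called without WT 3, NS-DADm 2 or NS-DADm 3, with log2 fold changes of -1.36, -1.30 and -1.40.

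Trpm7 (chromosome 2, 126791565 to 126876230, minus strand) stood at 76.7 (WT 1), 83.9 (WT 2) and 84.3 CPM (WT 3), against 84.1 (NS-DADm 1), 85.1 (NS-DADm 2) and 87.4 CPM (NS-DADm 3). The groups overlapped, and WT 1 was the lowest library. The log2 fold change was 0.07 ± 0.053 (SE). Within a library the ratio of both genes does not depend on how that library is scaled. Trpm6 reads per 100 Trpm7 reads numbered 3.62 (WT 1), 2.26 (WT 2) and 2.97 (WT 3), against 1.22 (NS-DADm 1), 0.936 (NS-DADm 2) and 1.04 (NS-DADm 3), again without overlap. On the log2 scale this ratio averaged -5.10 ± 0.34 in WT and -6.53 ± 0.19 in NS-DADm mice (SD, n = 3 each), a difference of -1.43.

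**Figure D2:**
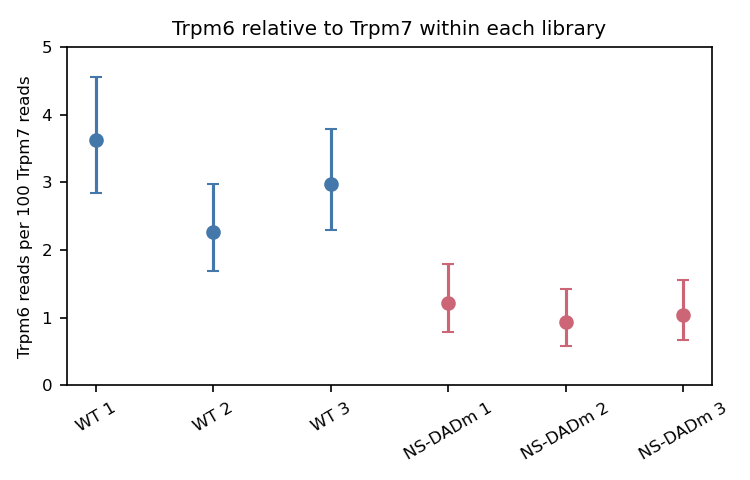
Trpm6 reads per 100 Trpm7 reads in each library, with exact binomial 95% intervals that cover counting error only. The WT libraries lie between 2.26 and 3.62 and the NS-DADm libraries between 0.936 and 1.22.

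Trpm6 was also lower relative to the TRPC genes. The log2 ratio of Trpm6 to the mean of the 5 TRPC genes was -2.47 (WT 1), -3.15 (WT 2) and -2.79 (WT 3), against -4.02 (NS-DADm 1), -4.34 (NS-DADm 2) and -4.15 (NS-DADm 3). The difference between the group means was -1.37, and it lay between -1.21 and -1.56 against each of the other 8 genes taken singly. In each of these 8 ratios the groups did not overlap. The ratios share the Trpm6 reads, so they are not separate observations.

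Of the 5 TRPC genes, 0 were called by edgeR, DESeq2 or limma voom, and 0 had an unadjusted p under 0.05 in edgeR, which 10.9% of all tested genes had. Their median log2 fold change was 0.0007, against 0.004 over all tested genes. In all 5 the groups overlapped.

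Trpc1 (chromosome 9, 95705082 to 95750375, minus strand) encodes a subunit that mainly joins channels formed by its relatives. It stood at 27.6 (WT 1), 25.7 (WT 2) and 25.3 CPM (WT 3), against 26.6 (NS-DADm 1), 24.5 (NS-DADm 2) and 24.4 CPM (NS-DADm 3). The log2 fold change was -0.06 ± 0.067 (SE), and its coefficient of variation in WT was 4.70%, among the smallest of the 9 genes. A stretch of 126 bases of its transcript was 92.9% identical to one of Chek2, so reads there are uncertain.

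Trpc4 and Trpc5 encode the receptor-operated channels that TRPC1 joins. Trpc4 (chromosome 3, 54156035 to 54318471, plus strand) stood at 15.9 (WT 1), 17.5 (WT 2) and 18.0 CPM (WT 3), against 19.1 (NS-DADm 1), 18.0 (NS-DADm 2) and 20.6 CPM (NS-DADm 3). NS-DADm 2 lay just below WT 3, so the groups overlapped by that pair, and the log2 fold change was 0.16 ± 0.081 (SE). Trpc5 (chromosome X, 144381671 to 144688180, minus strand) stood at 32.0 (WT 1), 37.7 (WT 2) and 38.4 CPM (WT 3), against 36.7 (NS-DADm 1), 38.2 (NS-DADm 2) and 36.2 CPM (NS-DADm 3). WT 1 was its lowest library, every NS-DADm value fell inside the WT range, and the log2 fold change was 0.04 ± 0.073 (SE).

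Trpc6 and Trpc7 encode channels gated by diacylglycerol. Trpc6 (chromosome 9, 8544142 to 8680741, plus strand), the least abundant TRPC gene followed here, stood at 5.05 (WT 1), 6.21 (WT 2) and 4.96 CPM (WT 3), against 4.50 (NS-DADm 1), 5.36 (NS-DADm 2) and 4.64 CPM (NS-DADm 3). Its log2 fold change was -0.16 ± 0.13 (SE). Trpc7 (chromosome 13, 56773113 to 56895993, minus strand) stood at 12.7 (WT 1), 13.3 (WT 2) and 18.1 CPM (WT 3), against 16.3 (NS-DADm 1), 13.4 (NS-DADm 2) and 14.5 CPM (NS-DADm 3). WT 3 stood above the rest, which gave Trpc7 the widest relative spread in WT (coefficient of variation 20.3%), and the log2 fold change was 0.0007 ± 0.13 (SE).

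Trpm3 and Trpm2, the other TRPM genes followed, were not called. Trpm3 (chromosome 19, 22139046 to 22995410, plus strand), whose intron holds the microRNA gene Mir204, stood at 104 (WT 1), 114 (WT 2) and 108 CPM (WT 3), against 114 (NS-DADm 1), 128 (NS-DADm 2) and 131 CPM (NS-DADm 3). All NS-DADm libraries lay above all WT libraries, but NS-DADm 1 and WT 2 were separated only in the fourth digit, at 114.4 and 113.8 CPM. The log2 fold change was 0.19 ± 0.059 (SE). It shares 351 exon bases with C330002G04Rik and 277 with Gm27151 on the opposite strand, and reads there cannot be told apart without the strand setting. Groups without overlap were found for 2 of the 9 genes, Trpm3 and Trpm6, and for 16.8% of all tested genes (8.93% lower in NS-DADm). Trpm3 is also strongly expressed in choroid plexus, the tissue that makes cerebrospinal fluid. The summed level of 10 choroid plexus markers was 97.6 to 111 CPM (WT) and 102 to 123 CPM (NS-DADm). Most of this sum came from Prlr, which averaged 65.8 ± 8.9 CPM across WT and 72.5 ± 4.9 CPM across NS-DADm libraries (SD, n = 3). Of the 10 markers, 3 had a lower mean in NS-DADm mice. None was at 0, and Ttr, the defining marker, had 10 to 17 reads per WT library and 13 to 31 per NS-DADm library. The part of choroid plexus in the Trpm3 values was not tested.

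Trpm2 (chromosome 10, 77907722 to 77970563, minus strand) stood at 65.9 (WT 1), 49.8 (WT 2) and 50.7 CPM (WT 3), against 56.7 (NS-DADm 1), 51.8 (NS-DADm 2) and 49.98 CPM (NS-DADm 3). WT 1 was high, the other WT libraries fell within 1 CPM of NS-DADm 3, and the log2 fold change was -0.07 ± 0.10 (SE). A stretch of 191 bases of its transcript was 97.9% identical to one of Gm48632, so reads there are uncertain. TRPM2 is also made by microglia. The summed level of 8 microglia markers was 267 to 274 CPM (WT) and 242 to 254 CPM (NS-DADm). Of them, 7 had a lower mean in NS-DADm mice, 0 were called (edgeR; 4 lower and 1 higher at an unadjusted p under 0.05), and none was at 0. The part of microglia in the Trpm2 values was not tested.

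**Figure D3:**
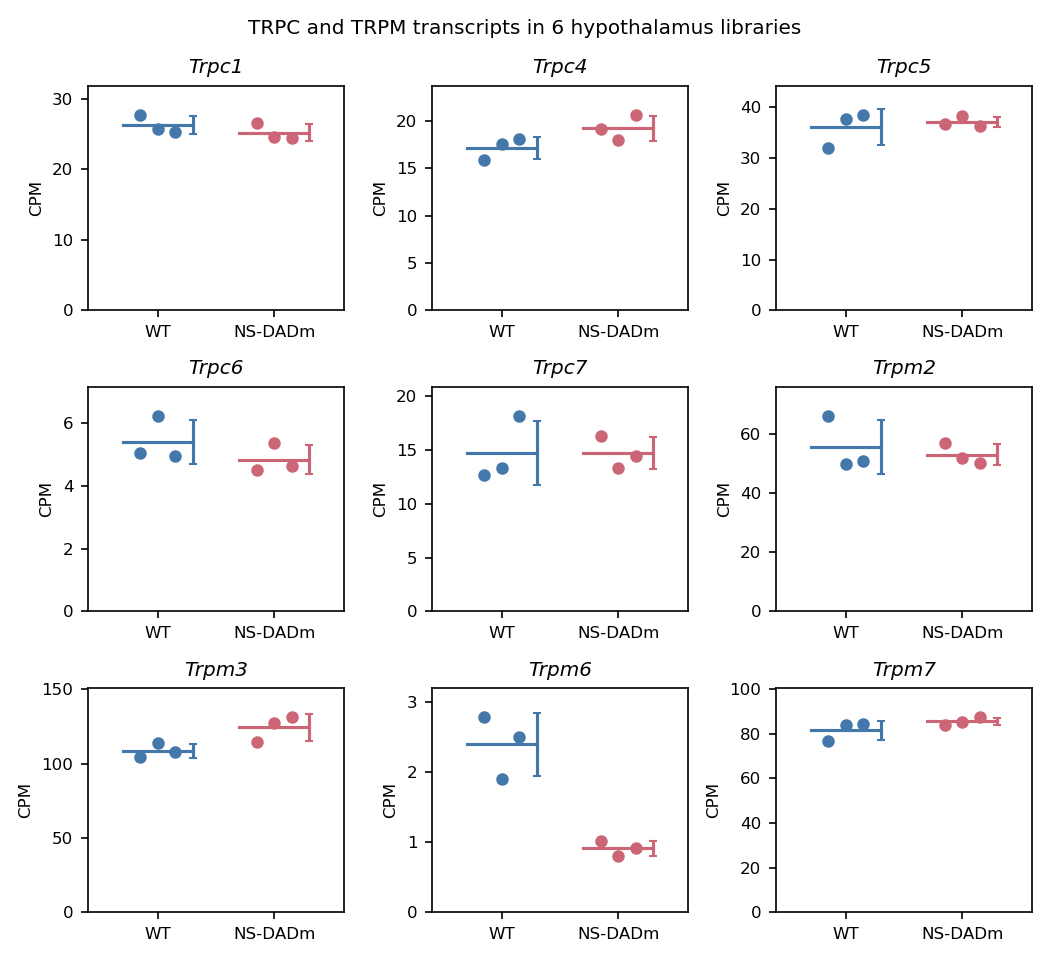
CPM of the 9 genes in each library, with the group mean (horizontal line) and SD (error bar), n = 3 per group, and each axis starting at 0. In Trpm6 the NS-DADm libraries lie near 0.9 CPM, below all WT libraries, while the groups overlap in 7 of the other 8 genes.

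Trpm6 and the thalamus markers were both lower in the NS-DADm libraries. All 13 thalamus markers had a log2 fold change below 0, and 4 were called (edgeR, BH adjusted p under 0.05 over all genes), with a median of -1.21 and none at 0 reads. Over all tested genes, 48.4% had a log2 fold change below 0 and 0.573% were called lower. The groups did not overlap in 12 of the 13 markers, and in 16.8% of all tested genes in either direction. This decrease in thalamus markers was already known when the genes were chosen. Their mean log2 CPM was 5.91 (WT 1), 5.03 (WT 2) and 5.54 (WT 3), against 4.36 (NS-DADm 1), 3.95 (NS-DADm 2) and 4.30 (NS-DADm 3). Trpm6 followed the same order of libraries within each group, highest in WT 1 and lowest in WT 2, and highest in NS-DADm 1 and lowest in NS-DADm 2. For Trpm6 the full order is not resolved from counting error, and single pairs of libraries were not tested. The exact Poisson 95% intervals of Trpm6 overlapped among NS-DADm 1, 2 and 3 (16.2 to 36.9, 13.8 to 33.3 and 15.4 to 35.7 reads). They also overlapped among WT 1, 2 and 3 (59.9 to 95.1, 38.8 to 68.2 and 51.0 to 84.0 reads). Overlap of such intervals does not show that 2 counts are alike. The summed level of 8 habenula markers was 70.6 to 81.1 CPM (WT) and 76.0 to 79.0 CPM (NS-DADm), and that of 8 striatum markers was 153 to 187 and 160 to 214 CPM, so both sums overlapped. Single genes of these lists did not all overlap: the groups were apart in 2 habenula markers and 1 striatum marker. Of the 7 habenula markers tested, 4 had a log2 fold change above 0 and 3 below, with a median of 0.04. The 2 that were apart, named after their values were seen, went opposite ways. Vav2 was higher in NS-DADm mice, with a log2 fold change of 0.13 ± 0.079 (SE). The habenula receptor gene Gpr151 was lower. Gpr151 stood at 2.63 (WT 1), 1.72 (WT 2) and 2.16 CPM (WT 3), against 1.23 (NS-DADm 1), 1.09 (NS-DADm 2) and 1.37 CPM (NS-DADm 3), with a log2 fold change of -0.82 ± 0.21 (SE; edgeR, BH adjusted p = 0.11). Its WT libraries had the same order as those of Trpm6. The NS-DADm order differed, with NS-DADm 3 highest for Gpr151 and NS-DADm 1 highest for Trpm6. The part of habenula in the Trpm6 values was not tested. In bulk tissue, fewer cells of a type and less RNA per cell cannot be told apart.

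The genes most like Trpm6 were ranked by the root mean square difference of log2 CPM, each gene centred on its own mean, over the 6 libraries. Over the 14533 genes averaging 1 CPM or more, the nearest were Rab37, a vesicle-trafficking GTPase (difference 0.116), Mctp2, a calcium-binding membrane protein (0.121), Plekhg1, a guanine nucleotide exchange factor (0.121), Vav3, likewise an exchange factor (0.132), and Tcf7l2, a WNT-pathway transcription factor of thalamic neurons (0.158). Plekhg1 and Tcf7l2 are in the thalamus list, and 9 of its 13 genes were among the nearest 100. The median difference over all ranked genes was 0.718. The other channel genes lay far from Trpm6, from Trpm2 (0.666, rank 2500) to Trpm3 (0.818, rank 13552), and Trpm7 had 0.751 at rank 10780. This ranking follows the genotype difference as well as the spread within groups. For Trpm6 and the thalamus markers that difference was known beforehand, so their nearness is no separate evidence.

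**Figure D4:**
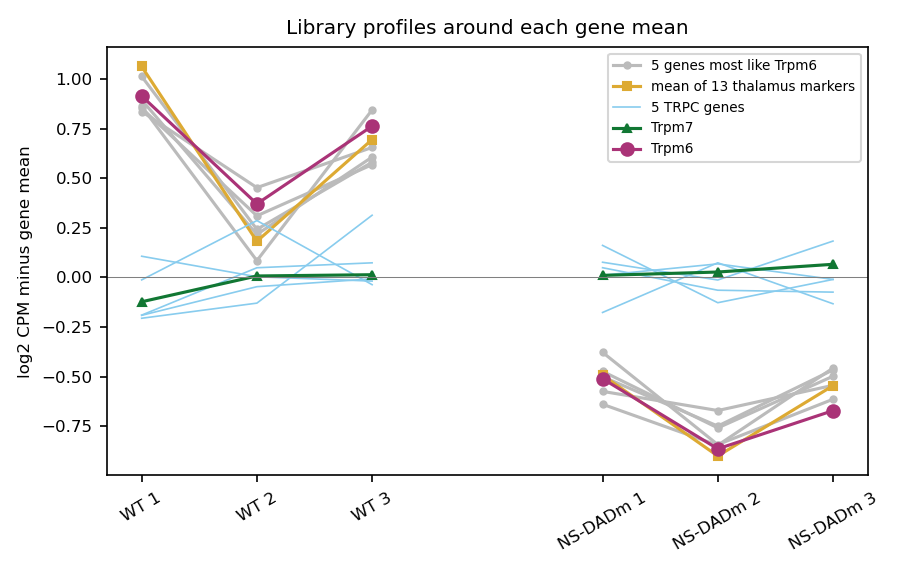
Log2 CPM minus the gene's own mean in each library for Trpm6, Trpm7, the 5 TRPC genes, the 5 genes most like Trpm6 and the mean of the 13 thalamus markers, with lines joining values within a group. Trpm6 and the thalamus marker mean are both lower in the NS-DADm libraries, a genotype difference known beforehand. Trpm6 goes from 0.91 in WT 1 to -0.86 in NS-DADm 2, while Trpm7 stays between -0.12 and 0.07.

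When the thalamus marker mean was added to the model, the log2 fold change of Trpm6 was -0.55 ± 0.45 (SE), and the gene was not called. The standard error was wider because the marker mean itself separated the groups, so that genotype and the thalamus marker level cannot be told apart in these 6 libraries. In the same fit Trpc6 had -0.69 ± 0.29, Trpm2 0.43 ± 0.17, Trpc5 -0.26 ± 0.16 and Trpm3 -0.001 ± 0.13 (SE), and 0 of the 9 genes were called. Trpm7 had -0.07 ± 0.12 (SE) there, a value of the opposite sign to that without the covariate.

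**Figure D5:**
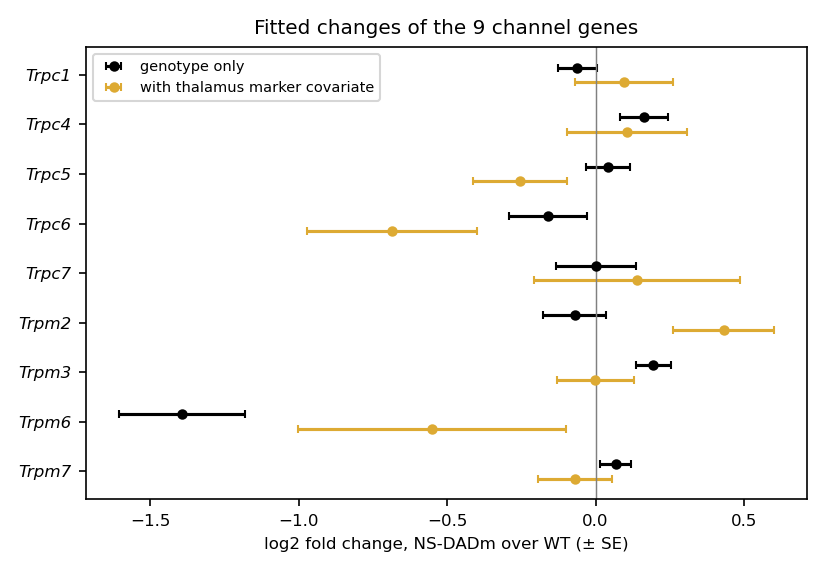
Fitted log2 fold change of NS-DADm over WT (± SE) for the 9 genes, without a covariate and with the thalamus marker mean as a covariate. Trpm6 moves from -1.39 to -0.55 and its error widens, and the other genes lie within 0.2 of 0 without the covariate.

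Among the 19 other TRP channel genes, 13 were tested, and 0 were called by edgeR (2 higher and 1 lower at an unadjusted p under 0.05; 0 by limma voom, 1 higher and 1 lower by DESeq2). Their median log2 fold change was 0.06. Pkd2l1, a polycystin channel of neurons that contact cerebrospinal fluid, stood at 4.02 (WT 1), 4.28 (WT 2) and 2.20 CPM (WT 3), against 6.14 (NS-DADm 1), 8.43 (NS-DADm 2) and 8.18 CPM (NS-DADm 3) (log2 1.12 ± 0.22 SE; edgeR, BH adjusted p = 0.065). All NS-DADm libraries lay above all WT libraries. Pkd2l1 was called without WT 2 or NS-DADm 1 (edgeR, BH adjusted p = 0.022 and 0.048). Trpv4, an osmotically gated channel, averaged 1.47 ± 0.20 CPM across WT and 2.31 ± 0.35 CPM across NS-DADm libraries (SD, n = 3; edgeR, BH adjusted p = 0.19). The 6 untested genes, Trpc2, Trpm1, Trpm5, Trpv5, Mcoln2 and Mcoln3, had 0 to 8 reads in each library.

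Of 24 genes of magnesium handling, the process TRPM6 and TRPM7 serve, 23 were tested and 0 were called by edgeR, DESeq2 or limma voom (1 higher and 0 lower at an unadjusted p under 0.05 in edgeR). The median log2 fold change was -0.05, with 3 above 0 and 20 below. Over all tested genes the median was 0.004, and 48.4% were below 0. Whether the list differs from all tested genes in this was not tested. Egf, the growth factor known to stimulate TRPM6 in kidney, averaged 2.21 ± 0.15 CPM across WT and 3.04 ± 0.17 CPM across NS-DADm libraries (SD, n = 3; edgeR, BH adjusted p = 0.24). Arl15, a small GTPase, averaged 19.6 ± 2.0 (WT) and 17.3 ± 1.4 CPM (NS-DADm; SD, n = 3) (edgeR, BH adjusted p = 0.51).

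Upstream of the TRPC channels, 20 genes of phospholipase C signalling and store-operated calcium entry were all tested. Of these, edgeR called 1 lower, Plcb4, a call that 0.573% of all tested genes received. The 20 genes had a median log2 fold change of -0.04. Plcb4, a phospholipase C isoform abundant in thalamus, stood at 147 (WT 1), 137 (WT 2) and 145 CPM (WT 3), against 117 (NS-DADm 1), 121 (NS-DADm 2) and 121 CPM (NS-DADm 3) (log2 -0.25 ± 0.048 SE; edgeR, BH adjusted p = 0.034). The groups did not overlap. Its call was lost when WT 3 or any single NS-DADm library was left out (edgeR, BH adjusted p = 0.16 without WT 3, and 0.10, 0.17 and 0.20 without NS-DADm 1, 2 and 3), with library totals as the only scaling (edgeR, BH adjusted p = 0.051), and with the thalamus marker covariate (log2 -0.15). Itpr1, the calcium release channel of the endoplasmic reticulum, averaged 245 ± 28 CPM across WT and 216 ± 21 CPM across NS-DADm libraries (SD, n = 3; edgeR, BH adjusted p = 0.53).

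Of 20 receptor genes whose products can act on TRPC channels through Gq or lipid kinases, all were tested and 0 were called by edgeR (2 higher and 3 lower at an unadjusted p under 0.05; 0 by limma voom, 2 lower by DESeq2). The median log2 fold change was 0.003. Ntsr2, a neurotensin receptor, averaged 161 ± 16 CPM across WT and 134 ± 5.5 CPM across NS-DADm libraries (SD, n = 3; log2 -0.27 ± 0.067 SE; edgeR, BH adjusted p = 0.11). Ntsr2 was called without WT 1 (edgeR, BH adjusted p = 0.00034), and with the covariate its log2 fold change was -0.54.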

How the data were processed

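The deposited values were raw read counts per gene symbol, and per the submitters' processing notes the authors aligned with TopHat2 2.0.9 to mm10 and counted with HTSeq. HTSeq's version, annotation and strand setting: not given in the sources used here. Reads of antisense partners thus cannot be told apart. The last 5 rows, classes of unassigned reads, were left out (no feature 13.3 to 14.8%, not unique 14.3 to 16.5% of entries). Counts were filtered with filterByExpr, scaled by TMM and fitted with edgeR 4.0.16 in R 4.3.3 (quasi-likelihood F test, robust, no covariate, BH over 15894 genes). SE was derived from the fold change and F. DESeq2 1.42.0, limma 3.58.1 voom and other alternatives are in the closing section. Log2 ratios used a prior count of 0.5. Positions, exon lengths and transcripts were GENCODE M21 (mm10), aligned with BLAST 2.17.0, with plots by matplotlib 3.10.9. The edgeR step was first tested on simulated counts. No 2 libraries of a group agreed within counting noise.

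Members and lists were chosen with earlier results of these data known. The text names all 9 channel genes, the called genes and the 2 with the smallest p of each related list, and the 5 genes most like Trpm6. Some genes of the related lists are counted but not reported here by name. The numbers in the titles were not used as pairs.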

Additional observations from a re-analysis of the deposited data

How the results depend on the processing

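Trpm6 kept its negative log2 fold change in all 16 alternatives (-1.54 to -0.55) and was called in 12. It was not called with the thalamus marker covariate (-0.55) or without WT 3, NS-DADm 2 or NS-DADm 3 (range with single libraries left out -1.54 to -1.27, 0 to 1 of the 9 genes called; the cause was not tested). The difference of the Trpm6 to Trpm7 log2 ratio lay between -1.61 and -1.19. The TRPC median log2 fold change was 0.0944 with the covariate and -0.0767 to 0.0897 with single libraries left out. Trpm7 was not called in any alternative, and Trpm7 and Trpm3 each kept their sign in 15 of 16, the exception being the covariate. All genes called numbered 203 with no count filter, 282 with DESeq2, 8 with the covariate, 584 without both WT 1 and NS-DADm 2, and 5 to 312 with single libraries left out, against 104. Calls in the related lists, 1 in the reported fit, were 0 with library totals only, 3 with no count filter, 5 with DESeq2, 0 with the covariate, 6 without both WT 1 and NS-DADm 2, and 0 to 4 with single libraries left out. With the longest transcript as length, WT levels in CPM per kb were 5.75 for Trpc1, 4.94 for Trpc4, 8.66 for Trpc5, 1.66 for Trpc6, 7.62 for Trpm2, 8.84 for Trpm3 and 11.5 for Trpm7, each higher by more than the SD, while Trpc7 (4.18) and Trpm6 (0.37) moved by less.

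Libraries of the same number in both groups correlated by 0.12, 0.08 and -0.04 in their deviations from group means. Since not every pair was over 0.1, the numbers were not taken as pairs, although 4 of 6 libraries correlated best with their own number, a hint of pairing from the data and not from the design. With a replicate block 409 genes were called, 2 of the 9 channel genes (Trpm6, and Trpm3 with a log2 fold change of 0.19) and 5 genes of the related lists. Trpm6 had 22 to 76 reads per library, which limits its precision.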
